A study of Mus musculus with 24 samples.

Results

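Clu and Selenop encode secreted glycoproteins of blood plasma, clusterin and selenoprotein P. They were found on the arrays by gene symbol, which gave 1 feature for Clu and 2 for Selenop, 3 of the 24157 features in all, and 2 of the 8315 gene symbols. They were selected on the log ratios given here, for a large rise against day 0 that continues to day 7. Their changes between days are therefore given as descriptions, with standard errors and with no test.

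Clusterin, also called apolipoprotein J, is a chaperone that binds misfolded proteins outside cells, travels in part on lipoprotein particles and holds back the terminal complement complex. Selenoprotein P is made mainly by the liver and carries selenium to other tissues as selenocysteine built into its chain. Cells take it up through LRP8 and LRP2, receptors of the LDL receptor family that can also bind clusterin.

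HBC-3, a line of mouse hepatoblasts, was kept on Matrigel for 1, 2, 3, 4, 5, 6 or 7 days, and was undifferentiated at day 0, with 3 arrays for each of the 8 time points, lettered A, B and C. Per the labels, trypsin and replating removed the STON+ feeder layer, and undifferentiated cells were taken from plastic on the following morning. Each 2-colour array set the sample, labelled with Cy5, against a common Cy3 reference of undifferentiated cells. All samples come from 1 cell line. Separate cultures behind the 3 arrays of a time point are not stated, so p-values measure the spread between arrays, which may be technical.

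Values are log2 ratios of sample over reference, centred on the median of each array. Base 2 and this direction are likely from the range of the values and the dyes in the labels, but the deposited table does not state them. An array held 12328 to 22149 values, and the SD of its log ratios lay between 0.332 and 1.06. The C arrays of days 4 to 7 stood apart: across features they correlated with each other at 0.808 to 0.967, and at 0.468 to 0.624 with the other arrays of the same day. Arrays A and B of the same day correlated at 0.519 to 0.779 in days 4 to 7, a range that overlaps that of C with A or B. The day 0 arrays, with undifferentiated cells in both channels, correlated at 0.755 for A with B, at -0.343 for A with C and at 0.0839 for B with C. Altogether 8 pairs of arrays lay below -0.3, each with day 0 array A or B, the lowest at -0.504 with day 3 array B. The direction of the day 0 arrays is therefore not settled. For Clu and Selenop, changes against day 0 are also given with the sign of array C alone or of all day 0 arrays turned. Afp was the only hepatoblast or hepatocyte marker tested, 1 of 8, and a ratio shows no absolute level, so the labelled cell type could not be checked here.

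Selenop lies on chromosome 15 at 3270767 to 3280510 and Clu on chromosome 14 at 65968483 to 65981548 (GRCm38.p6). RefSeq gives 3 promoter windows for Selenop, for transcripts that start at 3270767, 3270811 and 3270977, and the windows overlap. They were searched on both strands for 6 motifs: AP-1 (TGANTCA), heat shock (GAANNTTC), FOXO (TGTTTAC), HNF4 (TGNACTTTG), STAT (TTCNNNGAA) and C/EBP (TTGCNNAA). FOXO factors are known to activate the human SELENOP gene, so the window with a FOXO match is shown, as the 250 bases before the start at 3270977, at chr15:3270727-3270976 on the plus strand, with the match in capitals.

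Selenop: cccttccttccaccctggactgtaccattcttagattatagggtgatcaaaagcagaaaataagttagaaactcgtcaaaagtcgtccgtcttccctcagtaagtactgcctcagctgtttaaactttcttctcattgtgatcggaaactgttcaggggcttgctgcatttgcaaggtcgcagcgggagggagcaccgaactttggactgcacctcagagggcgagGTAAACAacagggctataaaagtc

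The match lies on the minus strand, and its first base as printed is 24 bases before the start. No other match to the 6 motifs fell in the 3 Selenop windows. The windows searched are longer than the 250 bases printed and also hold bases after the start. Over such full windows the FOXO letters occur in 3.6% of 32851, and in at least 1 window of 4.1% of 27025 genes. A match of letters is a description of the window and not a site of binding.

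Clu stood at the top of the arrays from day 3 on. On arrays A, B and C its day 0 log2 ratios were -1.04, -1.45 and -0.30, those of day 1 1.97, 2.34 and 1.93, and those of day 2 4.59, 5.61 and 4.54. Day 3 gave 5.36, 6.62 and 5.28, and day 4 gave 5.48, 6.31 and 6.79. Day 5 gave 5.07, 6.12 and 6.88, day 6 gave 5.19, 6.12 and 6.55, and day 7 gave 4.59, 6.03 and 6.62. The arrays of day 1 lay above all of day 0, and those of day 2 above all of day 1. From day 2 on the days overlapped.

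On 12 of the 15 arrays of days 3 to 7 the Clu feature had the highest log ratio of all features on the array. On the other 3, arrays A and C of day 3 and array A of day 7, it ranked 2, 2 and 3. Its mean (± SD, n = 3 arrays) was -0.93 ± 0.58 for day 0, 2.08 ± 0.23 for day 1, 4.91 ± 0.61 for day 2 and 5.75 ± 0.76 for day 3. It was 6.19 ± 0.66 for day 4, 6.03 ± 0.91 for day 5, 5.95 ± 0.70 for day 6 and 5.75 ± 1.04 for day 7.

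In the fit across all features, Clu changed by 3.01 ± 0.54 (SE) at day 1, by 6.68 ± 0.54 at day 3, by 7.12 ± 0.54 at day 4 and by 6.68 ± 0.54 at day 7, each against day 0. The day 7 change is 102-fold on a linear scale and the largest rise of 5114 ranked genes. At day 3 Clu also led 5312 ranked genes, and at day 1 it ranked 3 of 5305. With the signs of all day 0 arrays turned, the change of Clu was 1.15 ± 0.54 at day 1 and 4.82 ± 0.54 at day 7. With array C alone turned it was 2.81 and 6.48.

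Most of the rise of Clu came by day 2. Day 2 stood 2.83 ± 0.54 above day 1, while day 3 stood 0.84 ± 0.54 above day 2 and day 4 0.44 ± 0.54 above day 3. Days 5, 6 and 7 differed from the day before by -0.17, -0.07 and -0.21, each ± 0.54. Day 7 differed from day 3 by -0.01 ± 0.54. For Clu the data therefore go against a rise that continues to day 7.

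Selenop followed a like course at a lower height. The mean of its features gave log2 ratios of -0.78, -1.14 and -0.56 for A, B and C of day 0, of 1.29, 1.57 and 1.42 for day 1, and of 2.83, 3.77 and 3.14 for day 2. Day 3 gave 3.36, 3.89 and 3.60, and day 4 gave 3.46, 3.40 and 4.96. Day 5 gave 3.18, 3.69 and 4.82, day 6 gave 4.01, 3.91 and 4.54, and day 7 gave 3.63, 4.09 and 5.61. As for Clu, days 0, 1 and 2 did not overlap with one another, and from day 2 on neighbouring day means had overlapping arrays.

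The mean of Selenop was -0.83 ± 0.30 for day 0, 1.43 ± 0.14 for day 1, 3.25 ± 0.47 for day 2 and 3.62 ± 0.27 for day 3 (SD, n = 3 arrays). It was 3.94 ± 0.88 for day 4, 3.89 ± 0.84 for day 5, 4.15 ± 0.34 for day 6 and 4.45 ± 1.04 for day 7. The larger SDs of days 4, 5 and 7 are those where array C lay furthest above A and B.

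**Figure D1:**
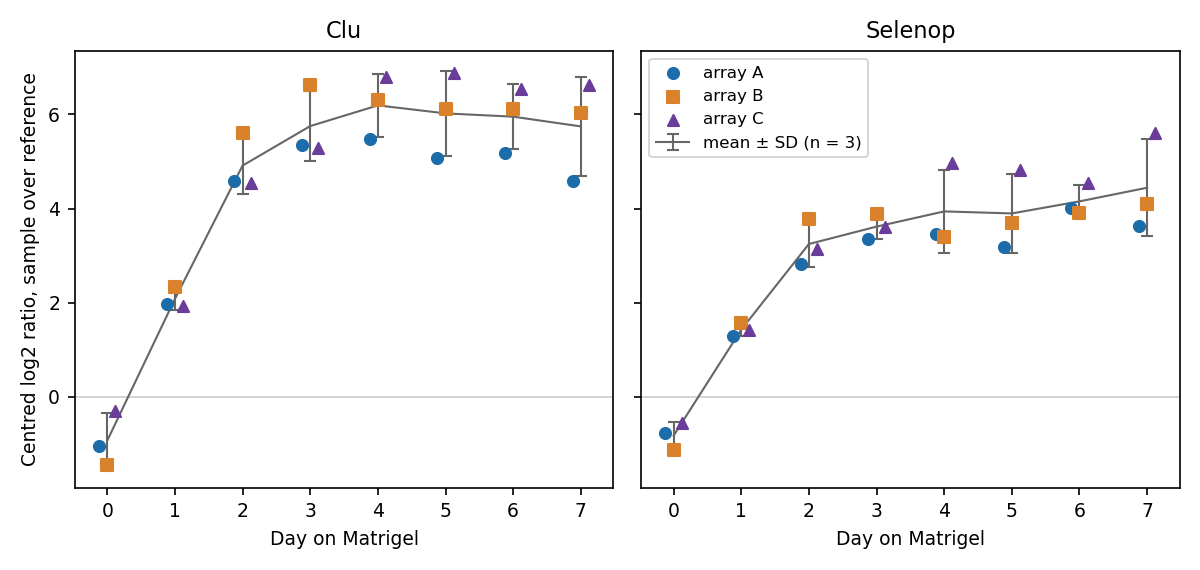
Centred log2 ratio of sample over reference (vertical axis) by day on Matrigel (horizontal axis) for Clu, left, and Selenop, right. Points are single arrays by letter, and the line joins day means with SD (n = 3). Both genes lie below 0 at day 0, and from day 4 array C is the highest of its day for both.

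Selenop changed by 2.25 ± 0.47 at day 1 and by 5.27 ± 0.47 at day 7 against day 0, which is 4.77-fold and 38.6-fold on a linear scale. It ranked 19 of 5305 genes at day 1 and 3 of 5114 at day 7, with Dcn, the matrix proteoglycan decorin, between it and Clu at 6.06 ± 0.68. Nrep (4.89) and Lbp (4.08) came next. With the signs of all day 0 arrays turned, the change of Selenop was 0.60 ± 0.47 at day 1 and 3.62 ± 0.47 at day 7. With array C alone turned it was 1.88 and 4.90.

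Unlike Clu, Selenop had its highest day mean at day 7, 0.83 ± 0.47 above day 3 and 0.29 ± 0.47 above day 6. These late steps are small beside the day 2 step of 1.82 ± 0.47 over day 1. Without the C arrays of days 4 to 7, day 7 stood only 0.25 above day 3, and day 6 had the highest mean (3.96, against 3.86 at day 7). With arrays scaled the highest mean was at day 2 (3.78, against 3.73 at day 7). With quantile normalization it stayed at day 7 (3.84, against 3.83 at day 6).

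The pair of Selenop features agreed. Both had a value on 23 arrays, and their median difference was 0.143 in size. On 22 arrays they lay within 0.5 of each other. The exception was array B of day 4, at 3.76 for one feature and 3.04 for the other, a difference of 0.726 before rounding. The feature without a value on day 5 array B stood at 3.59, 3.98 and 5.45 on arrays A, B and C of day 7, and the other at 3.67, 4.21 and 5.77. Clu rests on 1 feature and has no such check.

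Days 5 to 7 stood above days 1 to 3 by 1.66 ± 0.31 for Clu and by 1.40 ± 0.27 for Selenop. Against days 2 and 3 alone, leaving out day 1, days 5 to 7 were higher by 0.58 for Clu and by 0.73 for Selenop. Leaving array C out of days 4 to 7, this difference was 0.19 for Clu and 0.32 for Selenop. It also depended on how arrays were put on 1 scale. With every array scaled to the same spread, days 5 to 7 stood above days 1 to 3 by 0.05 ± 0.26 for Clu and by 0.26 ± 0.17 for Selenop, and differed from days 2 and 3 by -0.95 and -0.35. Day 1 minus day 0 was 4.36 for Clu and 3.35 for Selenop under that scaling, against 3.01 and 2.25 with centring alone. The arrays of these days had the smallest SDs, 0.332 to 0.473 at day 0 and 0.558 to 0.594 at day 1. Scaling to a common spread enlarges their ratios, so it could not shrink the first rise and is no check of it.

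**Figure D2:**
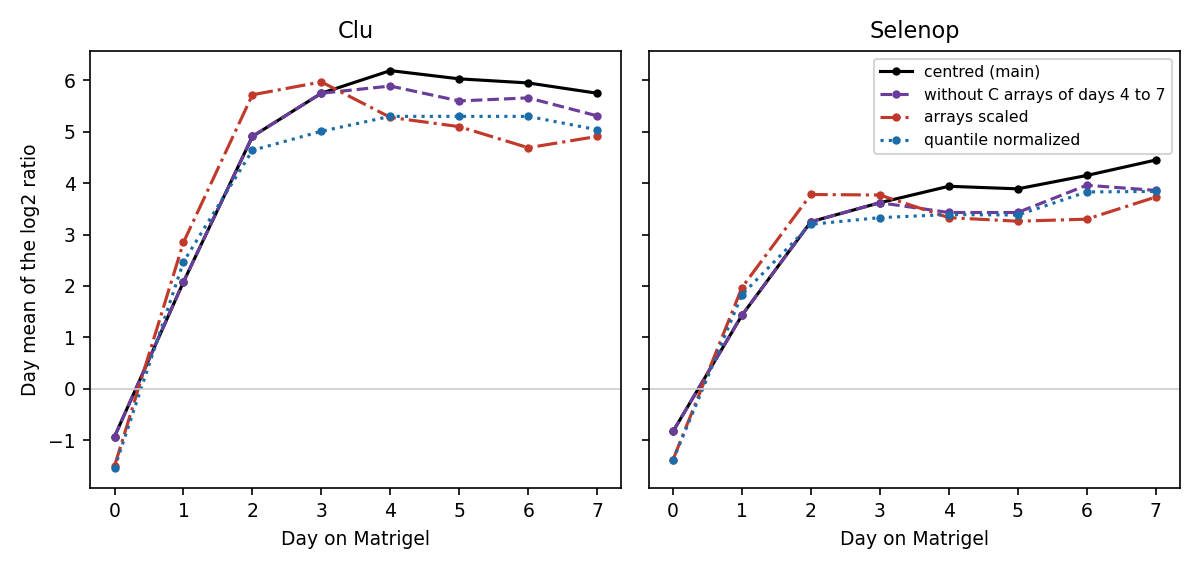
Day mean of the log2 ratio (vertical axis) by day on Matrigel for Clu, left, and Selenop, right, under 4 ways of treating the arrays. All 4 lines climb steeply to day 2. After day 3 the scaled line of Clu lies lower, between 4.69 and 5.28, where the centred one holds between 5.75 and 6.19.

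In days 4 to 7, array C exceeded A and B for both genes. Genes chosen for a rise to day 7 are favoured by high late C values, so the difference is a description, from a fit with day as a factor, with no test. Clu averaged 6.71 ± 0.15 on the 4 C arrays and 5.61 ± 0.62 on the 8 A and B arrays (SD), a difference of 1.10 ± 0.30 (SE). Selenop averaged 4.98 ± 0.45 on the C arrays and 3.67 ± 0.32 on the A and B arrays, a difference of 1.31 ± 0.20.

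Array C was the highest of its day on 4 of 4 days for each gene. Over everything tested in the same contrast, 18.6% of 10819 features and genes passed as higher on array C and 21.9% as lower (limma, Benjamini-Hochberg adjusted p under 0.05). With arrays scaled the difference was -0.57 for Clu and 0.03 for Selenop. With quantile normalization it was 0.10 for Clu and 0.86 for Selenop.

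In days 1 to 3 array C was the highest on 0 of 3 days for either gene. Array C minus A and B was -0.50 ± 0.30 for Clu and -0.06 ± 0.21 for Selenop. There array B was the highest of the day on all 3 days for both genes.

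The gap between the members changed over the course. Clu minus Selenop, taken array by array, was -0.10 ± 0.31 for day 0, 0.65 ± 0.14 for day 1, 1.67 ± 0.24 for day 2 and 2.14 ± 0.54 for day 3 (SD, n = 3 arrays). It was 2.25 ± 0.57 for day 4, 2.13 ± 0.28 for day 5, 1.80 ± 0.55 for day 6 and 1.30 ± 0.55 for day 7. Clu had the higher ratio on every array of days 1 to 7 and on 1 of 3 arrays at day 0. These are ratios to each gene's own reference level and say nothing of which transcript was more abundant.

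Across the 24 arrays Clu and Selenop correlated at 0.975, and each was the closest of 4081 genes to the other. These points share their days, and both genes were chosen for a rise over them, so the value is a description. Over the 21 arrays of days 1 to 7 it was 0.922, over the 15 arrays of days 3 to 7 it was 0.684, and over the 11 of these without the C arrays of days 4 to 7 it was 0.350. With day means taken out it was 0.805, and then Selenop ranked only 61 among the genes most like Clu, and Clu 201 among those most like Selenop. By Spearman correlation the ranks were 11 and 20.

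**Figure D3:**
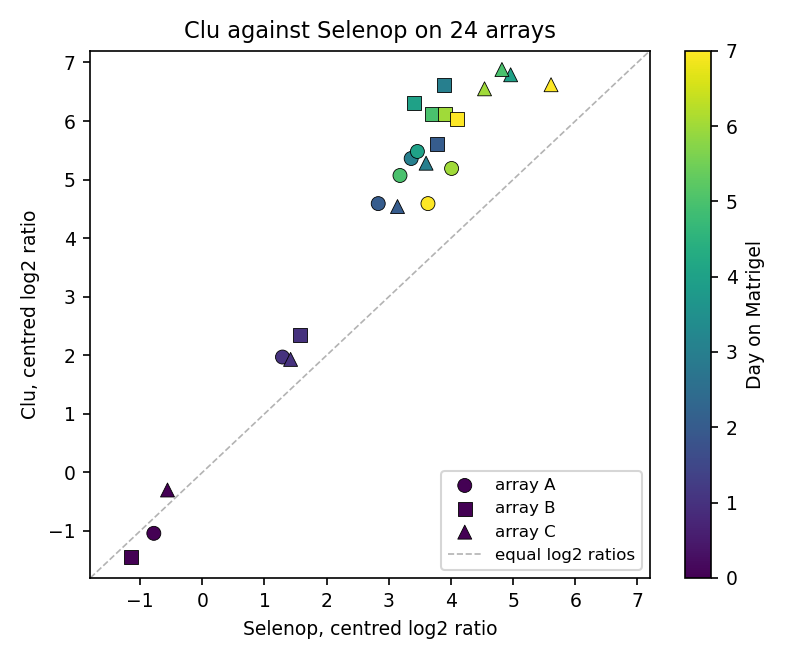
Centred log2 ratio of Clu (vertical axis) against that of Selenop (horizontal axis) on the 24 arrays, with letters by shape and days by colour; the dashed line marks equal ratios. The arrays of day 0 lie near the line, and those of days 2 to 7 form a band well above it with no clear order of days.

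After Selenop, the genes most like Clu over 24 arrays were Ctsb (r = 0.970), the lysosomal protease cathepsin B, Arhgap28 (0.959), Hexa (0.957), a lysosomal hexosaminidase subunit, and Enpp5 (0.944). After Clu, those most like Selenop were Pigb (0.955), which acts in the assembly of GPI anchors, Zfp36l1 (0.951), whose protein promotes the decay of AU-rich mRNAs, Manba (0.949), a lysosomal mannosidase, and Ctsb (0.948). Their day 7 changes against day 0 were far smaller than those of Clu and Selenop, from 1.18 for Arhgap28 to 2.73 for Manba. The genes most opposed to Clu were Ddx21 (-0.954), a nucleolar RNA helicase, Slc7a1 (-0.933), a transporter of cationic amino acids, and Cycs (-0.927), cytochrome c. Those most opposed to Selenop were Sac3d1 (-0.963), Tipin (-0.938), a protein of the replication fork, and Cinp (-0.936).

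Most of the other selenoproteins tested did not pass at day 7. Of 24 mouse selenoprotein genes 15 were tested, and of the 14 others 1 rose and 2 fell at day 7 against day 0, with a median change of -0.11. Over everything tested 14.6% rose and 13.0% fell at day 7 (limma, Benjamini-Hochberg adjusted p under 0.05), with a median of -0.01, so these shares are near the background. At day 1 none of the 14 passed in either direction (0 each), where the background was 4.99% higher and 5.92% lower, and their changes lay between -0.67 and 0.71.

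Selenoh, a nucleolar selenoprotein, stood at -1.16, -0.73 and -2.0 on arrays A, B and C of day 7, against 0.30, 0.66 and 0.32 at day 0. The arrays of the days did not overlap, and the fall of -1.72 ± 0.28 passed (adjusted p = 0.000215, limma). Gpx1, the cytosolic glutathione peroxidase, stood at -0.51, -0.38 and -1.66 at day 7, against -0.04, 0.30 and 0.22 at day 0, a fall of -1.01 ± 0.32 (adjusted p = 0.022, limma). It no longer passed without day 7 array C (-0.60) or day 0 array B (-0.94). Selenoo, which transfers AMP to other proteins, rose by 0.86 ± 0.27 (adjusted p = 0.025, limma), with no value on day 0 array C. It no longer passed without day 7 array B (0.77) or against the reference channel in place of day 0 (0.20, adjusted p = 0.396, limma). With the day 0 signs turned Selenoh still passed at -0.87, while Gpx1 at -0.69 and Selenoo at -0.47 did not.

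Gpx3, the glutathione peroxidase of plasma, stood at -0.26 ± 0.31, and Gpx4, which reduces lipid peroxides, at -0.28 ± 0.74 (adjusted p = 0.556 and 0.805, limma). Txnrd1, a thioredoxin reductase, stood at 0.26 ± 0.44 (adjusted p = 0.689, limma). Selenow had the lowest value, -1.91 ± 0.87, and did not pass (adjusted p = 0.105, limma). In days 5 to 7 against days 1 to 3, Gpx1 and Selenoh were lower by -0.87 and -0.57 (adjusted p = 0.00859 and 0.0391, limma) and none of the other 12 passed. In that comparison 3.51% of everything tested was higher and 4.23% lower.

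The background at day 7 was 14.6% higher and 13.0% lower over everything tested. Of 11 genes that build or insert selenocysteine 6 were tested, and 1 fell and 0 rose at day 7. This was Pstk, the kinase that phosphorylates seryl-tRNA on the way to selenocysteine, at -0.82, -1.0 and -1.33 on arrays A, B and C of day 7, against 1.05, 0.76 and -0.30 at day 0. Its fall was -1.55 ± 0.31 at day 7 (adjusted p = 0.00108, limma) and -1.17 ± 0.31 at day 1 (adjusted p = 0.0184, limma), and at day 7 it did not pass with the day 0 signs turned (-0.55). Secisbp2, whose protein binds the selenocysteine insertion element, stood at -0.10 ± 0.26 and Sephs1 at 0.12 ± 0.37 (adjusted p = 0.804 and 0.836, limma).

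Of 8 receptors of clusterin or selenoprotein P 4 were tested, and 1 fell and 0 rose at day 7. Over everything tested 13.0% fell and 14.6% rose. Lrp2, megalin, stood at -0.77, -1.76 and -2.05 on arrays A, B and C of day 7, against 0.24, 0.33 and 0.10 at day 0, with no overlap. Its fall of -1.75 ± 0.48 (adjusted p = 0.0112, limma) no longer passed without day 7 array C (-1.49) or with the day 0 signs turned (-1.30). Lrp1, Plxna4 and Scarb1 stood at -0.07, 0.49 and -0.24 (adjusted p = 0.907, 0.243 and 0.822, limma). Lrp8 was not among the genes tested.

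Other secreted proteins of plasma were measured in small numbers. Of 29 genes of complement and its regulators 5 were tested, and 3 rose and 0 fell at day 7. The background there was 14.6% higher and 13.0% lower. C1ra, a protease of the first complement component, stood at 2.41, 2.39 and 2.48 on arrays A, B and C of day 7, against -0.59, -0.93 and -0.28 at day 0, a rise of 3.03 ± 0.39 (adjusted p = 2.15e-05, limma). Serping1, the C1 inhibitor, stood at 1.87, 1.84 and 1.87 at day 7, against -0.67, -1.03 and -0.33 at day 0, a rise of 2.53 ± 0.30 (adjusted p = 9.19e-06, limma). At day 7 array C was close to A and B for both, though C1ra, like Clu and Selenop, was highest on array C on 4 of 4 days from day 4 on. With the day 0 signs turned both still passed, at 1.83 and 1.18. Masp1, a protease of the lectin pathway, rose by 1.56 ± 0.47 (adjusted p = 0.0206, limma) but did not pass with arrays scaled (0.99), nor without day 7 array A (1.49), day 7 array C (1.35) or day 0 array C (1.33).

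At day 1 Serping1 alone of the 5 rose, by 1.56 ± 0.30 (adjusted p = 0.00259, limma). The day 1 background was 4.99% higher. In days 5 to 7 against days 1 to 3, C1ra was higher by 1.11 ± 0.22 and Cfi, complement factor I, by 0.78 ± 0.23 (adjusted p = 0.00697 and 0.0496, limma). Without the C arrays of days 4 to 7, 2 complement genes rose at day 7, C1ra by 3.0 and Serping1 by 2.53, and Masp1 had too few values to be tested.

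Of 43 other plasma proteins of liver 3 were tested and all 3 rose at day 7, where 14.6% of everything tested rose. Lbp, the binding protein of lipopolysaccharide, stood at 2.89, 4.31 and 2.85 on arrays A, B and C of day 7, against -1.33, -0.88 and 0.00 at day 0, a rise of 4.08 ± 0.56 (adjusted p = 6.41e-05, limma). Afp, alpha-fetoprotein, rose by 1.93 ± 0.69 (adjusted p = 0.0427, limma) and lost the call without any 1 of the day 0 arrays (1.82 to 2.04) and without day 7 array B (1.29) or C (2.20). Serpinf1 rose by 0.97 ± 0.33 (adjusted p = 0.0331, limma) and lost it without day 0 array A (0.81) or B (0.99), without day 7 array B (0.59) and with arrays scaled (0.84). With the day 0 signs turned Lbp passed at 2.61 and the others did not. Of 18 apolipoprotein and lipoprotein genes Apob and Apoa5 were tested, at -0.38 and -0.22 (adjusted p = 0.116 and 0.571, limma).

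Of 21 heat shock factors and chaperones, a group that shares with clusterin the binding of misfolded proteins, 14 were tested, and 1 rose and 1 fell at day 7. Cryab, the small heat shock protein alpha-B crystallin, fell by -2.71 ± 0.40 (adjusted p = 7.64e-05, limma) and Dnaja1 rose by 0.91 ± 0.27 (adjusted p = 0.015, limma). Dnaja1 did not pass without day 7 array C (0.61), without day 0 array B (0.85) or with the day 0 signs turned (0.54). The median change of the 14 was 0.10. Over everything tested it was -0.01, and 14.6% rose and 13.0% fell. Of 21 antioxidant enzymes outside the selenoproteins 9 were tested, and 2 rose and 1 fell, beside the same background. Glrx, glutaredoxin, rose by 2.48 ± 0.41 (adjusted p = 0.000329, limma), and did not pass with the day 0 signs turned (0.75). Gstm1, whose 2 features disagreed in sign, stood at 1.51 and no longer passed without day 7 array B (1.0) or day 0 array A (1.41) or B (1.47). Prdx4, a peroxiredoxin of the endoplasmic reticulum, stood at -0.97, and no longer passed without day 7 array A (-0.74) or C (-0.93), without day 0 array B (-0.98) or C (-0.80), or with arrays scaled (-0.76).

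Of 22 FOXO factors, partners and targets 7 were tested, and 4 rose and 0 fell at day 7, with a median change of 0.74. Over everything tested 14.6% rose and 13.0% fell, with a median of -0.01. Sesn1, a stress-induced sestrin, stood at 2.39, 2.15 and 3.45 on arrays A, B and C of day 7, against -0.47, -0.45 and -0.34 at day 0, a rise of 3.09 ± 0.36 (adjusted p = 9.37e-06, limma). Btg1, an antiproliferative factor, rose by 2.63 ± 0.27 (adjusted p = 3.02e-06, limma) and Txnip, which binds thioredoxin, by 2.31 ± 0.54 (adjusted p = 0.00379, limma). Foxo1 itself rose by 0.74 ± 0.22 (adjusted p = 0.019, limma), but its call was lost with arrays scaled (0.55), without day 0 array A (0.69) or B (0.66), and without day 7 array B (0.69) or C (0.56). Foxo3, Trib1 and Cdkn1b stood at 0.60, 0.34 and -0.49 and did not pass (adjusted p = 0.166, 0.361 and 0.34, limma). At day 1 Btg1 and Sesn1 had risen by 1.76 and 1.68 (adjusted p = 0.00056 and 0.00623, limma). Without the C arrays of days 4 to 7, 2 genes of this list rose at day 7, Sesn1 by 2.69 and Txnip by 2.45, and Btg1 had too few values to be tested.

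**Figure D4:**
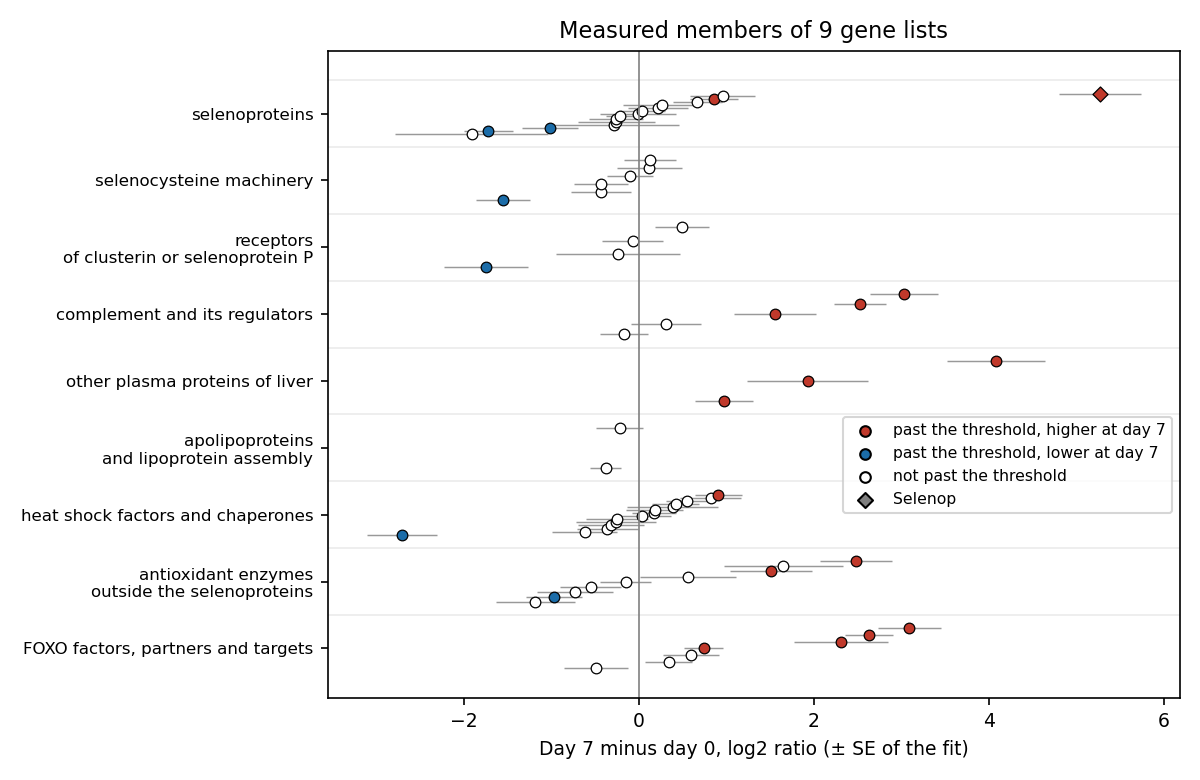
Change at day 7 against day 0 (horizontal axis, log2, with SE of the fit) for each tested member of 9 gene lists (rows). Red and blue points passed upward and downward, open points did not, and the diamond is Selenop, chosen for its rise. Selenop stands at 5.27, apart from the other 14 selenoproteins, which lie between -1.91 and 0.96.

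Some markers of other cells changed over the same days. Fibroblast genes were followed because a feeder layer had been removed from these cells. Of 15 fibroblast markers 9 were tested, and 3 rose and 0 fell on each of days 1 and 7. These were Pdgfrb (2.29), Col6a1 (1.81) and Col5a1 (1.43) at day 1, and Dcn (6.06), Pdgfrb (1.82) and Prrx1 (0.95) at day 7. Over everything tested 4.99% rose and 5.92% fell at day 1, and 14.6% rose and 13.0% fell at day 7. Col5a1, Col6a2 and Col5a2 stood at -0.16, -0.52 and -0.71 at day 7 and did not pass. The mean log2 ratio over the 9 markers ranged from 0.33 to 0.77 over the day 7 arrays, against -0.85 to 0.10 at day 0, and it was highest at day 3, at 0.88 to 1.39. Averaged over the arrays of a day, it was -0.51 at day 0 and 0.57 at day 7. With the day 0 signs turned these 2 days would therefore lie close together. Marker calls against day 0 are not given here with those signs turned, so they rest on the direction taken for day 0. In days 5 to 7 against days 1 to 3, 1 fibroblast marker was higher, Dcn, and Col5a1, Col5a2 and Col6a2 were lower. There the background was 3.51% higher and 4.23% lower. Of 8 macrophage markers 2 were tested, and Tyrobp rose at day 7 by 2.29 ± 0.58 (adjusted p = 0.00757, limma) while Lyz2 stood at 0.44 ± 0.24 (adjusted p = 0.175, limma), with a mean of both of 0.59 to 1.33 at day 7, against -0.52 to 0.19 at day 0. Of 5 endothelial markers Cdh5 was tested and did not pass (0.12, adjusted p = 0.847, limma), at -0.47 to 0.81 at day 7, against -0.28 to 0.11 at day 0. A change in the number of cells of a type and a change in RNA per cell cannot be told apart in these samples. The part of such cells in the values of Clu and Selenop was not tested.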

How the data were processed

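The authors deposited log2 ratios, so taken from their range, of 24 2-colour arrays, with Cy5 sample and Cy3 reference targets made from amplified RNA, per the labels. How they corrected background, normalized and filtered spots is not given in the sources used here. Features with 1 symbol (13319) were named from the platform annotation, with symbols updated through Entrez identifiers in RefSeq genes of GRCm38.p6 (13290 matched). Arrays were centred on their medians, and features of a gene were averaged. Units with values on at least 2 arrays of each day were kept: 10639, of which 5660 were genes.

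Day means were fitted with limma 3.58.1 (R 4.3.3), p-values were 2-sided, and the Benjamini-Hochberg threshold was 0.05. The letter contrast used the 12 arrays of days 4 to 7, with day as a factor. It was planned as a test of both genes, but is given for them as a description, since the choice of the genes could favour it. The number of arrays limits the precision. The fits were first tested on simulated data with independent arrays, which lack the likeness of the late C arrays found here.

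Members, lists and rules were chosen with earlier results of these data known. Named list genes are up to 4 per list past the threshold at day 7, by size. Others are given as values, and the 5 closest and 3 most opposed genes by Pearson r. Cfi and the genes called between late and early days were named after their values were seen. Sequences are RefSeq's.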

Additional observations from a re-analysis of the deposited data

Results flagged for a closer look

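The effect of the array letter C differed between days 4 to 7 and days 1 to 3, in 1 fit of days 1 to 7 that was chosen after seeing the data. In a test of that difference across 10822 features and genes, 1369 had a higher and 1531 a lower late effect (limma, adjusted p under 0.05). The late effect exceeded the early one by 1.60 ± 0.47 (SE) for Clu and by 1.37 ± 0.30 for Selenop, given as descriptions because the choice of these genes favours high late C values. With arrays scaled the differences were -0.53 and -0.26, and with quantile normalization 0.41 and 0.84. The C arrays of days 4 to 7 had SDs of log ratios of 0.998, 1.05, 1.01 and 1.06, while the A and B arrays of those days had 0.669 to 0.946.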

How the results depend on the processing

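All alternatives kept Clu and Selenop above day 0 on every later day, and sizes moved with the scaling. Both genes were selected for a rise over day 0 in these same values, so the kept sign is a description and no independent check. With all day 0 signs turned, Selenop at day 1 stood only 0.60 ± 0.47 (SE) above day 0. Scaled to 1 spread, Clu stood 4.36, 7.22 and 7.47 above day 0 at days 1 to 3 and Selenop 3.35, 5.16 and 5.15. Days 5 to 7 minus days 1 to 3 were 0.05 for Clu and 0.26 for Selenop. Against days 2 and 3 both genes turned in sign, to -0.95 for Clu and -0.35 for Selenop. Day 1 then had 1691 features and genes higher and 1568 lower, against 531 and 630 with centring alone. With quantile normalization day 1 gave 4.01 for Clu, 3.22 for Selenop, and 1629 and 1498 calls. With all day 0 signs turned Clu changed by 1.15, 3.98, 4.82, 5.26, 5.10, 5.02 and 4.82 at days 1 to 7 and Selenop by 0.60, 2.42, 2.79, 3.12, 3.07, 3.33 and 3.62, Selenoo reversed to -0.47, and calls numbered 215 and 300 at day 1 and 619 and 611 at day 7. Against the reference channel Clu stood at 2.08, 4.91, 5.75, 6.19, 6.03, 5.95 and 5.75, and Selenop at 1.43, 3.25, 3.62, 3.94, 3.89, 4.15 and 4.45. Higher calls at day 1 numbered 817 there, 799 with day 0 array C turned and 826 when array C was left out of days 4 to 7.

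With values required on every array, day 1 had 324 higher and 268 lower calls and day 7 846 lower ones. With 1 array per day enough, day 1 had 998 lower. A fit of only the groups compared called 1313 and 1264 at day 1 and 924 and 683 at day 7. Leaving out 1 array at a time, Clu at day 7 lay between 6.24 and 7.25 and Selenop between 4.69 and 5.68, while calls ranged from 160 (without day 0 array B) to 731 higher and 153 to 825 lower at day 1, from 884 to 1555 higher and 687 to 1510 lower at day 7, and from 198 to 489 higher and 186 to 766 lower between late and early days. The late C difference was -0.57 for Clu and 0.03 for Selenop with arrays scaled and 0.10 for Clu with quantile normalization. Its excess over the early one was -0.53 and -0.26 scaled, and 0.41 and 0.84 with quantile normalization. Leaving out 1 day, the late C difference itself lay between 1.03 and 1.17 for Clu and between 1.16 and 1.55 for Selenop, with 2436 to 5756 calls. The cause was not tested.

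Deviations of arrays with the same letter had correlations of 0.194 to 0.441 in days 1 to 3 and of 0.142 to 0.912 in days 4 to 7, over 0.1 in every such pair. Between these spans they were -0.3 to 0.287, and in pairs with day 0 they were -0.544 to 0.46. As this likeness did not hold in all pairs across the spans compared, the letters were not taken to pair the arrays. Even so, 19 of 24 arrays correlated best with their own letter, so some likeness by letter is left in the spread between arrays. With the letter as a block, calls between late and early days numbered 662 higher and 910 lower, against 373 and 450, and the changes of Clu and Selenop kept their size. Signal over background was not analysed here.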
